A study of Mus musculus with 12 samples.

Results

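Accessible chromatin was examined at 10 genes of the unfolded protein response and the ATF4-driven stress response, Atf4, Ddit3, Trib3, Chac1, Xbp1, Hspa5, Atf6, Asns, Sesn2 and Ppp1r15a, in cells and nuclei sorted from forebrains of WT and SgshKO mice of the C57BL/6 strain at 4 months of age. A peak was assigned to a gene when the deposited table named that gene as the one with the nearest start site. By this rule 143 of 281974 peaks belonged to the set, 62 of 91770 in the microglia table, 42 of 107627 in the NeuN+ table and 39 of 82577 in the Olig2+ table. SgshKO mice lack Sgsh, the lysosomal sulfamidase that takes part in the breakdown of heparan sulfate; the sources used here do not describe the allele. The assay was ATAC-seq, in which a transposase cuts open chromatin and the tags that fall in a peak measure how open it is. Microglia were sorted live on CD11b, low CD45 and CX3CR1, whereas neuronal (NeuN+, OLIG2-, PU.1-) and oligodendrocyte-lineage (Olig2+, NeuN-, PU.1-) nuclei came from lightly fixed tissue. Each of the 6 combinations of sort and genotype had 2 libraries, 12 in all, with no other treatment. The labels do not say whether the libraries of a group came from separate mice, so p-values measure the spread between these libraries, which may be technical.

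Proteins that misfold in the endoplasmic reticulum (ER) activate the sensors PERK, IRE1 and ATF6. PERK, like the kinases that sense amino acid shortage, viral RNA and mitochondrial or haem stress, phosphorylates the translation factor eIF2-alpha, which lowers protein synthesis but favours translation of ATF4. ATF4 then drives genes for amino acid supply (Asns), for glutathione breakdown and cell death (Chac1, Ddit3, Trib3), and for restraint of growth (Sesn2), while Ppp1r15a restores translation by directing the phosphatase back to eIF2-alpha. IRE1 splices the Xbp1 messenger RNA, and spliced XBP1 and cleaved ATF6 raise ER chaperones such as Hspa5. Oligodendrocytes, which make large amounts of membrane protein for myelin, are known for their reliance on this response. ATAC-seq reports accessibility and not the amount of messenger RNA or protein, so the splicing of Xbp1 and the translation of Atf4 cannot be seen in it.

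Upstream promoter sequences were read from RefSeq (GRCm38.p6, the same assembly as the mm10 build of the peaks) to show which response elements lie at the start sites whose accessibility is given in what follows. The promoter table held 9 of the 10 genes, all but Atf6. Each line gives the 250 bases before the start site, 5′ to 3′ on the gene's own strand, with matches to a searched motif in capitals. Ddit3 and Trib3 are shown because their start-site peaks were called higher in SgshKO microglia, Asns and Chac1 because they hold a motif of ATF4 dimers, and Hspa5 because it holds the ER stress element and was not called in microglia. The intervals are chr10:127290543-127290792 (+ strand) for Ddit3, chr2:152344061-152344310 (- strand) for Trib3, chr2:119350992-119351241 (+ strand) for Chac1, chr6:7693210-7693459 (- strand) for Asns and chr2:34771840-34772089 (+ strand) for Hspa5.
Ddit3: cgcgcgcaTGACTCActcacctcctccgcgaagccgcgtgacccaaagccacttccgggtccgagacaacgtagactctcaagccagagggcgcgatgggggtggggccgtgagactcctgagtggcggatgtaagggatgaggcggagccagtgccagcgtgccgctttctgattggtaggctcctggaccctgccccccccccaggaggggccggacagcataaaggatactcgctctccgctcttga
Trib3: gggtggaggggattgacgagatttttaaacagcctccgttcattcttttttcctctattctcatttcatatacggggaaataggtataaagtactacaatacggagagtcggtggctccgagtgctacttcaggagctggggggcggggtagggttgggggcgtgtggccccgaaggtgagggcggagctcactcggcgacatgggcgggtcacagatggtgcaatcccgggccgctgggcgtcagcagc
Chac1: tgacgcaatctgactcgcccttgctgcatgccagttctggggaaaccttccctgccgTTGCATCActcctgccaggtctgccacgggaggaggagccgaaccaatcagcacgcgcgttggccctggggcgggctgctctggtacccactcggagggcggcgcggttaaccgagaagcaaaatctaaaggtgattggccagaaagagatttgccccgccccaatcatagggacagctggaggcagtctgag
Asns: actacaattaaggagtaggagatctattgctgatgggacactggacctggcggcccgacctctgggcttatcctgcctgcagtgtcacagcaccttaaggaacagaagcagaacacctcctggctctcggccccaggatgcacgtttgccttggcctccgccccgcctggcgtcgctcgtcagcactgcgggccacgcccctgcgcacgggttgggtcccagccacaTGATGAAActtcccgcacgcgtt
Hspa5: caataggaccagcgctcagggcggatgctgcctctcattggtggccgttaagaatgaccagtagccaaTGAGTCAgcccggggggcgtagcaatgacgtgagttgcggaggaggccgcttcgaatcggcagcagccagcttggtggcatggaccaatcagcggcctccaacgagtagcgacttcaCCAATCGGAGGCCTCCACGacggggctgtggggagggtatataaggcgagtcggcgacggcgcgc
Positions are counted from the start site, with -1 as the last base printed and 15 as the 15th base of the transcript. The C/EBP-ATF response element was searched as TGATGNAA on both strands, and 3.97% of 32851 promoter windows of 300 bases (250 before and 50 after the start) held it. Of the 9 genes 3 did: Asns at -23 to -16 on its own strand, Chac1 at -193 to -186 on the opposite strand, and Trib3 at 15 to 22 on the opposite strand, which lies past the printed bases. The ER stress element, CCAAT and CCACG separated by 9 bases, was in 0.119% of windows and in 1 of the 9 genes, Hspa5, at -65 to -47. The AP-1 motif TGANTCA was in 7.81% of windows, and matched in Ddit3 at -242 to -236 and in Hspa5 at -182 to -176. The cyclic AMP response element TGACGTCA was in 1.79% of windows and in Ppp1r15a alone among the 9, at -12 to -5. The XBP1 motif TGACGTGG (0.676% of windows), ATTGG and CCACG separated by 1 base (0.0365%), the E-box CACGTG (7.15%) and the PU.1 motif GAGGAAGT (3.20%) matched none of the 9 windows. Such matches describe the letters in these windows and are not evidence of binding, and a motif that is not found says only that its letters are not in the window.

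The libraries held 10771659 to 19555924 tags in total. Tags were scaled to 10000000 per library by the authors, and levels are given here in those normalized tags. Peaks took up 52.2% ± 5.0 (SD, n = 2) of the tags of WT microglia and 60.5% ± 9.75 of those of SgshKO microglia; for NeuN+ nuclei the shares were 26.3% ± 0.552 (WT) and 21.4% ± 0.219 (SgshKO), for Olig2+ nuclei 31.8% ± 0.0283 (WT) and 31.4% ± 0.651 (SgshKO); 1 SgshKO microglia library, replicate 1, stood apart at 67.44%. Start-site peaks of the defining markers were highest in the matching sort, for example 1499.5 to 2095.1 summed tags over 7 of 8 microglia markers in microglia, against 24.1 to 43.6 over the 1 such peak (of 8) in NeuN+ nuclei and 105.3 to 145.6 over 2 in Olig2+ nuclei. The start-site peak of Sgsh itself was measured in all 3 tables (184.08 and 161.81 tags in WT and 257.13 and 259.94 in SgshKO microglia; 34.55 and 22.59, then 9.07 and 13.33 in NeuN+; 65.87 and 74.15, then 60.87 and 69.13 in Olig2+), and an open promoter does not test whether the enzyme is lost. With 2 libraries a group, peaks with few reads were measured loosely: member peaks held between 2 and 1260 reads per library. In these sorted pools, fewer cells of a type with an open site and a less open site in every cell cannot be told apart.

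In microglia the start sites of Ddit3 and Trib3 were more open in SgshKO than in WT, and they were the only 2 of the 62 member peaks to pass the test. Ddit3 encodes CHOP, the transcription factor that ATF4 induces under lasting stress. Its start-site peak (chr10:127290490-127290754, centred 171 bp before the start and annotated promoter-TSS) held 274.82 and 234.66 normalized tags in the WT libraries and 535.03 and 669.35 in the SgshKO libraries. Both SgshKO libraries lay above both WT libraries, a 2.36-fold ratio of means. The difference was 1.23 ± 0.25 (SE) on the log2(tags + 1) scale, which understates the change of low peaks, with an adjusted p of 0.00158 by limma with Benjamini-Hochberg adjustment over all peaks of the table.

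Trib3 encodes a pseudokinase that ATF4 and CHOP induce and that restrains AKT signalling. Its start-site peak (chr2:152343957-152344223, centred 30 bp before the start, promoter-TSS) held 69.14 and 61.84 tags in WT and 150.64 and 116.97 in SgshKO. Again the groups did not overlap, and the ratio of means was 2.04; the log2 difference was 1.01 ± 0.31 with a limma adjusted p of 0.0373. The neighbouring peaks inside these genes were not called: at 410 bp in the Ddit3 intron the WT libraries held 78.64 and 61.84 tags and the SgshKO libraries 80.51 and 72.41 (log2 difference 0.13 ± 0.32), and at 525 bp in the Trib3 intron they held 77.78 and 69.47 against 77.05 and 62.20 (-0.09 ± 0.32). Of all microglia peaks 7.37% were called, and of all 13128 start-site peaks (the nearest peak within 1000 bp of a gene's start) 12.7% were called higher, so 2 of 10 member start-site peaks is a share near that background. Both calls were lost without WT replicate 1 (limma adjusted p 0.0537 for Ddit3 and 0.444 for Trib3) and without WT replicate 2 (0.266 and 0.707). In those 2 fits 0 member peaks were called, with unadjusted p under 0.05 at 4 and 2 of the 62; the ratios stayed on the same side, and edgeR and DESeq2 on all 4 libraries called both genes.

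**Figure D1:**
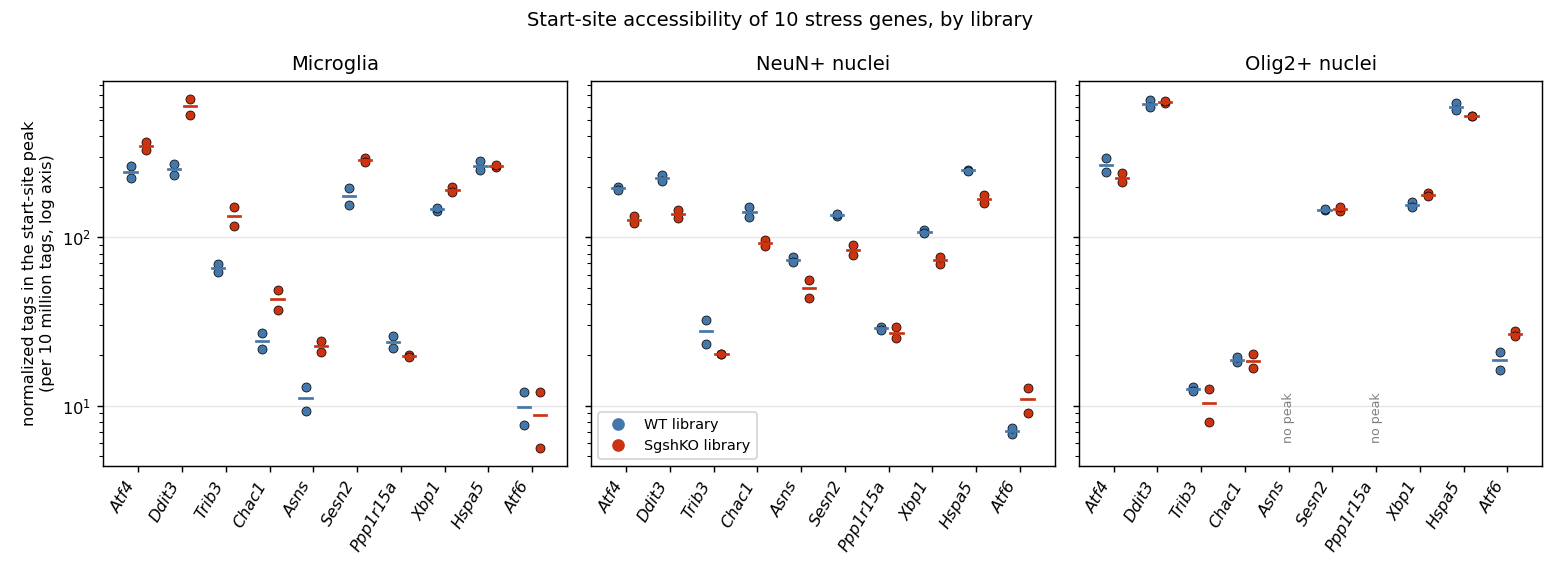
Normalized tags (per 10000000 tags, log axis) in the start-site peak of each gene, one point per library and a bar at the mean of the 2 libraries, WT in blue and SgshKO in red. Ddit3 and Trib3 stand apart between genotypes in microglia, Ddit3 at 535.03 and 669.35 against 274.82 and 234.66, whereas most genes sit lower in SgshKO NeuN+ nuclei. The Olig2+ table had no start-site peak named for Asns or Ppp1r15a, and its Trib3 peak lies 469 bp past the start.

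The other ATF4 targets and Atf4 itself did not pass the test in microglia. Sesn2, a leucine-sensing inhibitor of mTORC1, held 195.31 and 155.03 tags in WT and 295.22 and 282.22 in SgshKO at its start site (94 bp before the start; log2 difference 0.73 ± 0.27, limma adjusted p 0.0939). Among the uncalled start sites this was nearest to the threshold, and 6 of its 14 alternative fits called it, among them edgeR at 0.0116 and DESeq2 at 0.0425. Chac1, which degrades glutathione, held 21.61 and 27.11 tags in WT and 48.48 and 37.13 in SgshKO (0.78 ± 0.39, adjusted p 0.231). Asns, the asparagine synthetase, was barely open in microglia, with 12.96 and 9.32 tags in WT and 20.78 and 24.14 in SgshKO (0.96 ± 0.46, adjusted p 0.205), from 11 to 26 reads per library. Atf4 itself, the hub of the response, held 266.18 and 226.19 tags in WT and 329.85 and 368.56 in SgshKO (0.51 ± 0.26, adjusted p 0.25). In each of these 4 genes both SgshKO libraries lay above both WT libraries. How often that holds was not counted over all start-site peaks, whose median log2 difference was itself 0.20, so it is not read as particular to them.

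No start site of the ER-branch genes Xbp1, Hspa5 and Atf6 passed the test in microglia, nor did the nearest peak named for Ppp1r15a. Xbp1, whose start-site peak lies in the 5′ UTR, held 143.46 and 149.95 tags in WT and 198.26 and 185.67 in SgshKO, groups that did not overlap but differed by 0.39 ± 0.28 (limma adjusted p 0.441). Hspa5, the ER chaperone BiP, held 283.46 and 249.91 against 261.45 and 268.30 tags, with a difference of -0.01 ± 0.26 and overlapping groups. The groups overlapped at Atf6 too, the ER membrane-bound sensor, whose weak start-site peak held 12.10 and 7.62 tags in WT and 12.12 and 5.57 in SgshKO (-0.19 ± 0.52). For Ppp1r15a, the phosphatase subunit GADD34, the nearest peak named for it lay 730 bp past the start, at the neighbouring start of Plekha4. It held 25.93 and 22.03 tags in WT and 19.91 and 19.50 in SgshKO (-0.27 ± 0.42). The NeuN+ peak named for Ppp1r15a, at -24 bp, overlapped microglia and Olig2+ peaks that were not named for it. The values of those peaks were not examined, so the start of Ppp1r15a itself was not assessed in microglia. Over the 10 start-site peaks the median log2 difference was 0.62, beside 0.20 over all start-site peaks of the table and -0.08 over all its peaks. The SgshKO libraries lay wholly above WT at 7 of the 10. That share was not counted over all start-site peaks, so it is not read as particular to these genes.

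Away from the start sites no microglia peak of the set was called. Of 43 peaks beyond 1000 bp, in introns, gene ends and intergenic sequence, the SgshKO libraries lay wholly below WT at 20 and wholly above at 1. That split was not counted over all such peaks, so it is not read as particular to these genes. The median log2 difference of the 43 was -0.25, against -0.12 over the 67926 such peaks of the table. Of the 43 limma called 0, beside 6.5% of all such peaks, with unadjusted p under 0.05 at 6. On the same 43 peaks edgeR called 3, all lower, and DESeq2 called 0. The 2 nearest to the limma threshold, named after their values were seen, were a peak 12614 bp past the Chac1 start (7.78 and 13.55 tags against 2.60 and 2.79; adjusted p 0.0600) and one in an Atf6 intron 23263 bp past its start (9.51 and 7.62 against 2.60 and 1.86; 0.0732), both from at most 16 reads. Scaling to tags in peaks changed the split of the microglia calls from 2 higher and 0 lower to 2 higher and 6 lower, 5 of the latter near Atf6. That scaling moved the median of all microglia peaks from -0.08 to -0.28. Leaving out SgshKO replicate 1 gave 9 calls (3 higher, 6 lower) and leaving out SgshKO replicate 2 gave 8 (4 higher, 4 lower); Ddit3 and Trib3 were called higher in both.

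**Figure D2:**
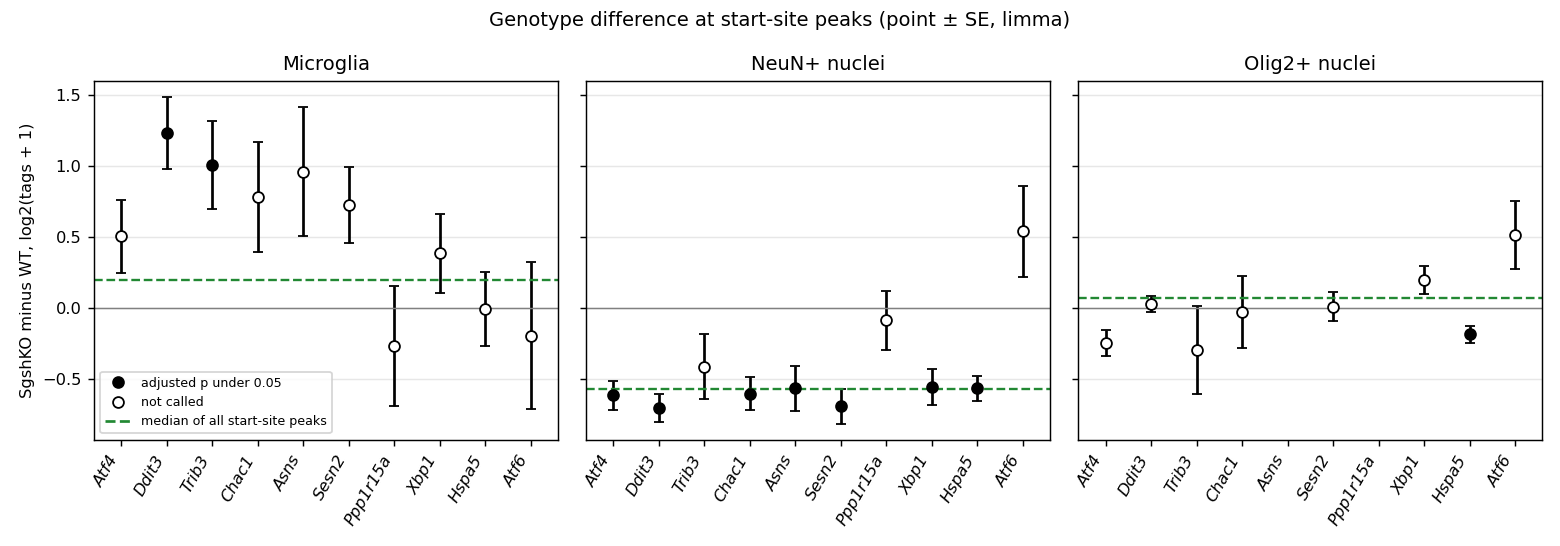
SgshKO minus WT at each gene's start-site peak on the log2(tags + 1) scale, point ± SE from limma, filled where the adjusted p is under 0.05, with the median of all start-site peaks dashed. In microglia Ddit3 (1.23) and Trib3 (1.01) are filled, in NeuN+ nuclei 7 genes lie on or near the dashed line at -0.57, and in Olig2+ nuclei only Hspa5 (-0.19) is filled.

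In NeuN+ nuclei the start sites of 7 of the 10 genes, Atf4, Ddit3, Chac1, Asns, Sesn2, Xbp1 and Hspa5, were less open in SgshKO, by 0.56 to 0.70 on the log2 scale. The whole promoter class moved the same way there: 55.1% of all 13395 start-site peaks were called lower, and the median log2 difference was -0.57 over the member start sites and -0.57 over all of them. The members therefore sat at the level of promoters in general. Ddit3 held 235.08 and 215.17 tags in WT and 145.88 and 130.16 in SgshKO (-0.70 ± 0.10, limma adjusted p 6.81e-05). Atf4 held 199.96 and 192.58 against 122.15 and 133.33 (-0.62 ± 0.10, 0.000246), and Hspa5 252.64 and 247.92 against 159.14 and 178.41 (-0.57 ± 0.09, 0.00022). Each of these pairs of libraries was separated from the other by a gap wider than the spread within it.

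The amino acid and growth genes were lower to a similar degree in NeuN+ nuclei. Sesn2 held 134.82 and 137.80 tags in WT and 90.04 and 78.09 in SgshKO (-0.69 ± 0.12, limma adjusted p 0.000451). Chac1 held 150.68 and 132.15 against 96.32 and 88.89 (-0.60 ± 0.12, 0.00119), and Asns 76.47 and 71.16 against 55.84 and 43.81 (-0.57 ± 0.16, 0.0130). Xbp1 held 110.46 and 106.17 against 69.80 and 76.82 (-0.56 ± 0.13, 0.0037). The Asns call was lost after scaling to tags in peaks (limma adjusted p 0.2) and with median-of-ratios scaling (0.0983), edgeR (0.0836) or DESeq2 (0.518). That of Xbp1 was lost after scaling to tags in peaks (limma adjusted p 0.125) and with DESeq2 (0.41). The 3 start sites that were not called were low ones: Trib3 with 32.29 and 23.15 tags in WT and 20.24 and 20.32 in SgshKO (adjusted p 0.177), Ppp1r15a with 29.46 and 28.24 against 25.13 and 29.21 (0.768), and Atf6 with 6.80 and 7.34 against 9.07 and 12.70 (0.204). Atf6 was the only start-site peak of the 10 whose SgshKO libraries lay above WT.

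Other called NeuN+ peaks went both ways. An Atf6 intron peak 458 bp past the start held 11.33 and 13.55 tags in WT and 3.49 and 5.08 in SgshKO (log2 difference -1.36 ± 0.34, limma adjusted p 0.00657), while another 60024 bp past the start held 2.83 and 4.52 against 12.56 and 16.51 (1.74 ± 0.35, 0.00129). These 2 parts of the same gene thus changed in opposite directions, from 5 to 26 reads per library. A peak 6785 bp past the Ddit3 start, in an exon of the neighbouring methionyl-tRNA synthetase gene Mars1, fell (7.93 and 7.34 to 2.09 and 3.17 tags; 0.0191). One 36749 bp past the Chac1 start, in an intron of the chromatin remodeller gene Ino80, rose (1.70 and 5.08 to 9.77 and 8.89; 0.0190). For these the nearest start site names the gene but the peak lies inside a neighbour. The peak in Ino80 was not called without WT replicate 1 (log2 difference 0.76 in place of 1.35; limma adjusted p 0.231), under quantile normalization (0.0502) or with DESeq2 (0.255). The peak in Mars1 was not called without WT replicate 1 (0.225) or WT replicate 2 (0.166), after scaling to tags in peaks (0.055), with edgeR (0.0569) or with DESeq2 (0.502), nor the Atf6 peak at 458 bp without WT replicate 1 (0.0585) or WT replicate 2 (0.0986) or with DESeq2 (0.343).

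In all, 11 of 42 NeuN+ member peaks were called, 9 lower and 2 higher, beside 29.8% of all peaks of the table. Those counts became 6 lower and 5 higher after scaling to tags in peaks, and 7 lower and 5 higher with edgeR. Quantile normalization left 3 calls, none at a start site (0 of 10 by limma there, 7 of 10 in the fit reported, 6 with edgeR and 1 with DESeq2). Scaling to tags in peaks moved the median of all NeuN+ peaks from -0.23 to 0.05. Without WT replicate 1 there were 5 calls. Without SgshKO replicate 1 or replicate 2 limma called 0 of the whole table, with unadjusted p under 0.05 at 16 and 12 of the 42 member peaks. Beside the lower start sites, the 8 neuron markers summed to 565.9 and 525.8 start-site tags in the WT libraries against 255.5 and 274.9 in the SgshKO libraries (6 of 8 called lower), those of 4 of 8 oligodendrocyte-lineage markers 139.9 and 119.7 against 67.0 and 71.7, those of the 1 microglia marker with such a peak (of 8) 43.6 and 36.1 against 28.6 and 24.1, and the share of tags in peaks was lower as well. After scaling to tags in peaks 5 of the 10 member start sites were called lower, beside 30.7% of all start-site peaks, with medians of -0.27 and -0.28. The part of the marker differences in the result was not tested.

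In Olig2+ nuclei 1 of the 8 start sites, that of Hspa5, passed the test. Ddit3, with the highest start-site level of the 10 genes in this sort, held 653.53 and 595.22 tags in WT and 631.44 and 643.44 in SgshKO (log2 difference 0.03 ± 0.06), so the groups overlapped. Hspa5 held 626.56 and 571.69 tags in WT and 526.30 and 525.78 in SgshKO, a drop of 0.19 ± 0.06 on the log2 scale (-0.19; limma adjusted p 0.0264) that was not called by edgeR (0.180) or DESeq2 (0.463), nor without WT replicate 1 (0.319). Atf4 lay just outside the threshold at 295.64 and 244.43 against 241.63 and 212.04 (-0.25 ± 0.09, adjusted p 0.0577). Sesn2 held 145.23 and 146.76 against 143.26 and 150.89, and Xbp1 161.31 and 151.87 against 183.84 and 175.48 (0.20 ± 0.10, 0.159). The low start sites of Chac1 (16.62 to 20.29 tags over the 4 libraries) and Atf6 (16.36 to 27.67) were not called either. Nor was the Trib3 peak (7.99 to 12.97), which lies 469 bp past the start and matches the microglia intron peak at 525 bp. Beside these values, start-site tags summed over 2 of 8 microglia markers were 105.3 to 114.6 for WT and 125.4 to 145.6 for SgshKO. Those over 4 of 8 neuron markers were 29.0 to 37.3 and 46.5 to 46.7, and those of 1 of 5 endothelial markers 2.6 to 3.6 and 8.6 to 10.6. In each of these types 1 marker was called higher, beside 16% of all start-site peaks. The 1 of 6 astrocyte markers with such a peak went the other way, at 8.2 to 9.3 and 6.0 to 6.2, and was not called. Sums over the 8 oligodendrocyte-lineage markers overlapped between genotypes (1307.2 to 1337.1 over the 4 libraries), and the part of the marker differences was not tested.

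Away from the start sites in Olig2+ nuclei, 3 peaks were called. A peak in intergenic sequence 35167 bp before the Xbp1 start held 14.52 and 15.85 tags in WT and 4.30 and 6.65 in SgshKO (log2 difference -1.34 ± 0.33, limma adjusted p 0.00456). One in an Xbp1 intron, 1567 bp past the start, held 21.27 and 25.06 against 12.91 and 13.96 (-0.74 ± 0.26, 0.0411). One 4801 bp past the Ppp1r15a start, in an intron of the neighbouring Tulp2, held 1.04 and 2.56 against 7.38 and 5.32 (1.43 ± 0.43, 0.0182), from 2 to 12 reads per library. Each of these 3 calls was lost without WT replicate 1 (limma adjusted p 0.0541, 0.106 and 0.297 in that order) and without WT replicate 2 (0.0834, 0.25 and 0.101). In all 4 of 39 peaks were called beside 19.8% of the table, and 1 of 8 start-site peaks beside 23.7%. The 4 were 1 higher and 3 lower, and with edgeR 3 higher and 1 lower; median-of-ratios scaling called 2 and DESeq2 0, with an unadjusted p under 0.05 at 1. Without WT replicate 1, 0 of the 39 were called by limma (6 had an unadjusted p under 0.05), and without WT replicate 2 there were 2.

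**Figure D3:**
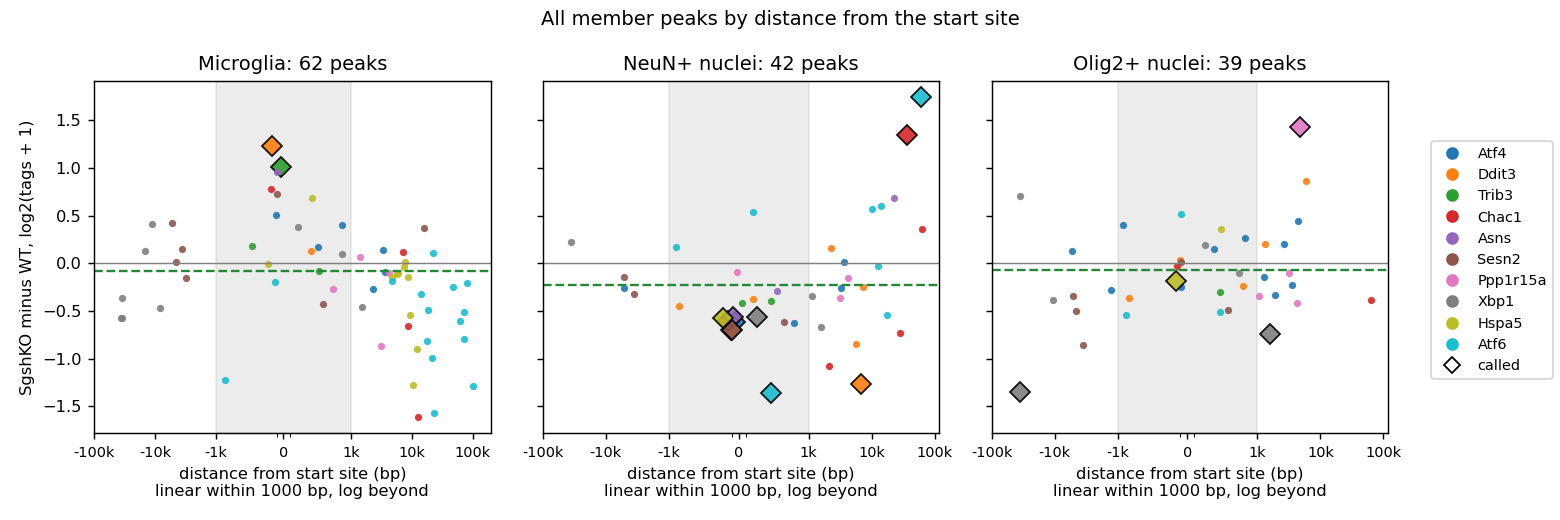
SgshKO minus WT on the log2(tags + 1) scale for every member peak against its distance from the start site (linear within 1000 bp, shaded, and log beyond), coloured by gene, with called peaks as outlined diamonds and the median of all peaks of the table dashed. In microglia the 2 called peaks, both higher, lie at the start sites while most of the 43 peaks beyond 1000 bp lie below 0; in NeuN+ nuclei the called peaks near the start sites are lower.

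The genotype change was then compared between sorts at peaks found in all 3 tables. Peaks were matched 1 to 1 when they overlapped by at least 50% of each other's length, which gave 16761 matched peaks, 16 of them assigned to a member in every table; 2 more had a member as the nearest gene in some tables only and were left out. One model over all 12 libraries, which share 1 estimate of the spread, tested the difference of the 2 genotype changes. Fitted alone, the SE of the Ddit3 change was 0.25 in microglia, 0.10 in NeuN+ and 0.06 in Olig2+ nuclei. The shared estimate can thus be too small for microglia, and the adjusted p of contrasts with microglia too low. The Ddit3 start site stood apart in microglia: its change exceeded that in NeuN+ nuclei by 1.94 ± 0.19 (limma adjusted p 1.75e-08) and that in Olig2+ nuclei by 1.20 ± 0.19 (5e-05). Both differences were called in all 23 alternative fits, with values from 0.62 to 2.10 and from 0.51 to 1.36. The Trib3 start-site peak had no match in the Olig2+ table and was therefore not among the peaks matched in all 3 tables, so its change was not compared between sorts.

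Other start sites also moved differently in microglia and NeuN+ nuclei. Sesn2 differed by 1.42 ± 0.20 (limma adjusted p 5.07e-06), Chac1 by 1.39 ± 0.32 (0.000994), Atf4 by 1.12 ± 0.20 (5.65e-05) and Xbp1 by 0.94 ± 0.20 (0.000411). Of the 16 matched peaks 9 were called in this contrast, 8 with a higher SgshKO minus WT value in microglia than in NeuN+ nuclei, beside 42.5% of all matched peaks, whose median difference was already 0.60. Less that median, Ddit3 differed by 1.33, Sesn2 by 0.82, Chac1 by 0.78, Atf4 by 0.52, Xbp1 by 0.34 and Hspa5 by -0.04. That median covers matched peaks at any distance from a start site, whereas these 6 are start-site peaks. Over all start-site peaks of the single tables the median genotype change was 0.20 in microglia and -0.57 in NeuN+ nuclei. A median of the matched start-site peaks alone was not computed, so these values can overstate the excess over promoters in general. Between microglia and Olig2+ nuclei 4 of 16 were called beside 21.6%: Ddit3, the Atf4 start site (0.75 ± 0.20, 0.00739), the Sesn2 start site (0.72 ± 0.20, 0.0138) and an intergenic peak 5183 bp before Sesn2 (0.77 ± 0.22, 0.0151). Between NeuN+ and Olig2+ nuclei 5 of 16 were called beside 31.7% of all matched peaks, whose median difference was -0.50. The SgshKO minus WT value was lower in NeuN+ nuclei at the start sites of Ddit3 (-0.73 ± 0.19), Sesn2 (-0.70 ± 0.20) and Xbp1 (-0.76 ± 0.20). It was also lower at an Atf4 intron peak (-0.90 ± 0.28) and higher at the distal Xbp1 peak (1.56 ± 0.44). Less the median of -0.50, Ddit3 differed by -0.23, Sesn2 by -0.20, Xbp1 by -0.26, the Atf4 intron peak by -0.40 and the distal Xbp1 peak by 2.06. The 3 contrasts share libraries and are not independent of each other. Scaling to tags in peaks, quantile normalization and DESeq2 each left 1 call between microglia and Olig2+ nuclei, that of Ddit3, and 2 were left without microglia WT replicate 2, Olig2+ WT replicate 1 or Olig2+ SgshKO replicate 1. The contrasts with NeuN+ nuclei moved with the scaling: median-of-ratios scaling gave 4 calls between microglia and NeuN+ nuclei in place of 9, edgeR 5 and DESeq2 3, and the Hspa5 and distal Sesn2 differences changed sign under it, with edgeR, with DESeq2 and under quantile normalization. The Atf4 and Xbp1 start-site differences were not called with median-of-ratios scaling (0.52 and 0.34; limma adjusted p 0.0541 and 0.193), edgeR or DESeq2, and changed sign under quantile normalization (-0.09 and -0.13), as did the Atf4 intron peak (-0.04); Xbp1 was also not called after scaling to tags in peaks (0.123). Chac1 was not called with median-of-ratios scaling (0.0605) or DESeq2 (0.133), and Sesn2 was not called under quantile normalization (0.277). Between NeuN+ and Olig2+ nuclei there was 1 call after scaling to tags in peaks, 2 with median-of-ratios scaling, quantile normalization or edgeR, and 0 with DESeq2; without NeuN+ SgshKO replicate 2 limma called 3.

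**Figure D4:**
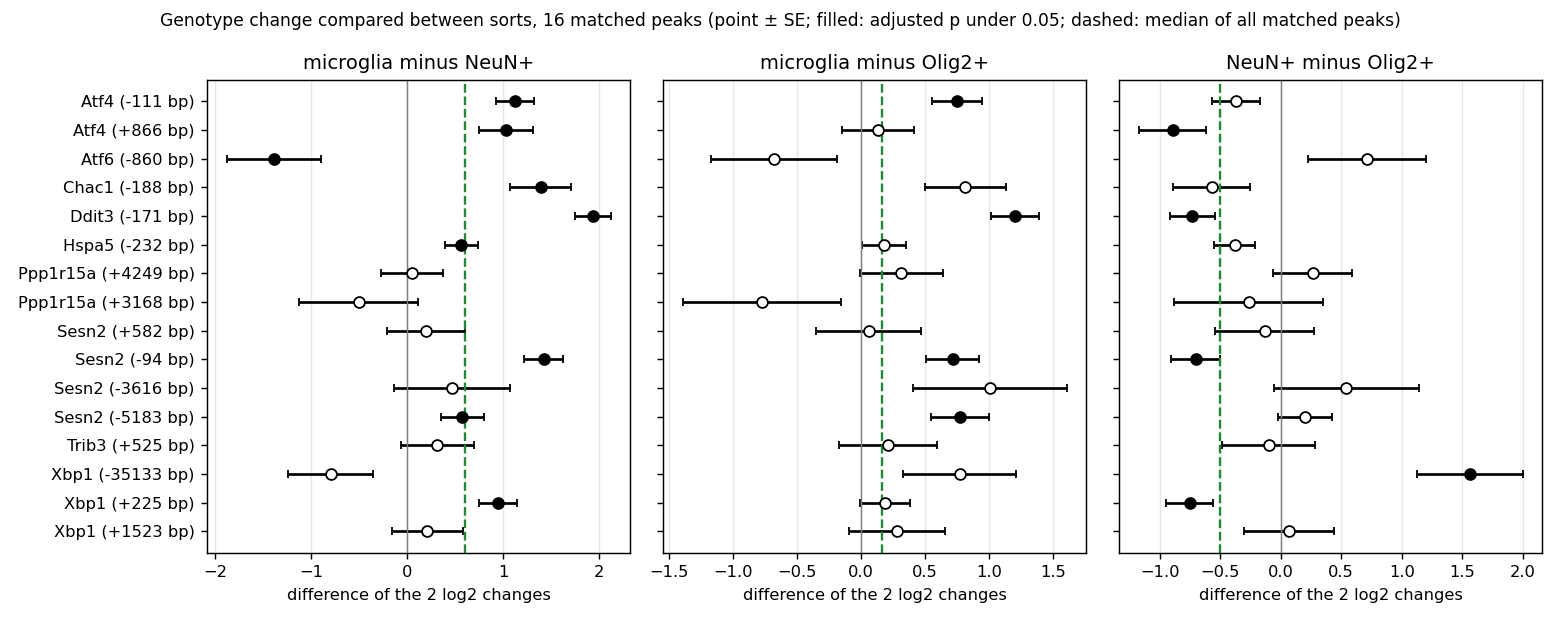
Difference between sorts in the SgshKO minus WT change (log2 scale, point ± SE) at the 16 matched peaks, named by gene and distance from the start in the microglia table, filled where the limma adjusted p is under 0.05, with the median of all matched peaks dashed. Ddit3 lies farthest to the right of the dashed line in the panel of microglia minus NeuN+, at 1.94, and is filled in all 3 panels.

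The WT libraries show, on the scaling to library totals, where each gene was open to begin with. The start sites of Ddit3 and Hspa5 were most open in Olig2+ nuclei: Ddit3 averaged 624 tags there against 255 in microglia and 225 in NeuN+ nuclei, and Hspa5 599 against 267 and 250 (log2 differences to Olig2+ of -1.29 and -1.47 for Ddit3 and -1.17 and -1.25 for Hspa5, limma adjusted p at most 1.51e-08). Microglia and NeuN+ nuclei did not differ beyond their spread at either gene on that scaling (limma adjusted p 0.249 and 0.537). Chac1 was a NeuN+ site, with 150.68 and 132.15 tags in WT NeuN+ nuclei against 21.61 and 27.11 in microglia and about as few in Olig2+ nuclei (18.8 on average; NeuN+ minus Olig2+ 2.85, adjusted p 5.27e-10). Atf4, Xbp1 and Sesn2 start sites lay within 0.53 of each other across sorts on the log2 scale, and 5 of their 9 contrasts were called, with Atf4 at 196 to 270 tags, Xbp1 at 108 to 157 and Sesn2 at 136 to 175.

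Peaks outside the start sites were mostly higher in microglia under the scaling to library totals. Over all matched peaks the median WT difference was 0.47 for microglia minus NeuN+ and 0.35 for microglia minus Olig2+ nuclei. After scaling to tags in peaks these medians were -0.49 and -0.34. Smaller differences between microglia and nuclei therefore depend on the scaling. The intergenic peak 5183 bp before Sesn2 averaged 395 tags in WT microglia, more than the Sesn2 start site there, against 73.0 in NeuN+ and 83.4 in Olig2+ nuclei (2.41 and 2.22, limma adjusted p 1.03e-11 and 3.35e-11). An Atf4 intron peak 866 bp past the start averaged 199 tags against 26.3 and 47.9. Intron peaks of Trib3 (73.6 against 29.1 and 12.6) and Xbp1 (73.2 against 18.1 and 23.2) and a peak past Ppp1r15a (87.3 against 26.0 and 33.2) showed the same order between microglia and the nuclei. Of the 16 matched peaks 12 were called between WT microglia and NeuN+ nuclei (65.8% of all matched peaks), 10 between microglia and Olig2+ (67.2%) and 8 between NeuN+ and Olig2+ (49.5%), so such differences were common in the data at large. Live microglia and fixed nuclei were prepared differently, which cannot be told apart from cell type. After scaling to tags in peaks the calls between NeuN+ and Olig2+ nuclei numbered 5, as with DESeq2.

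**Figure D5:**
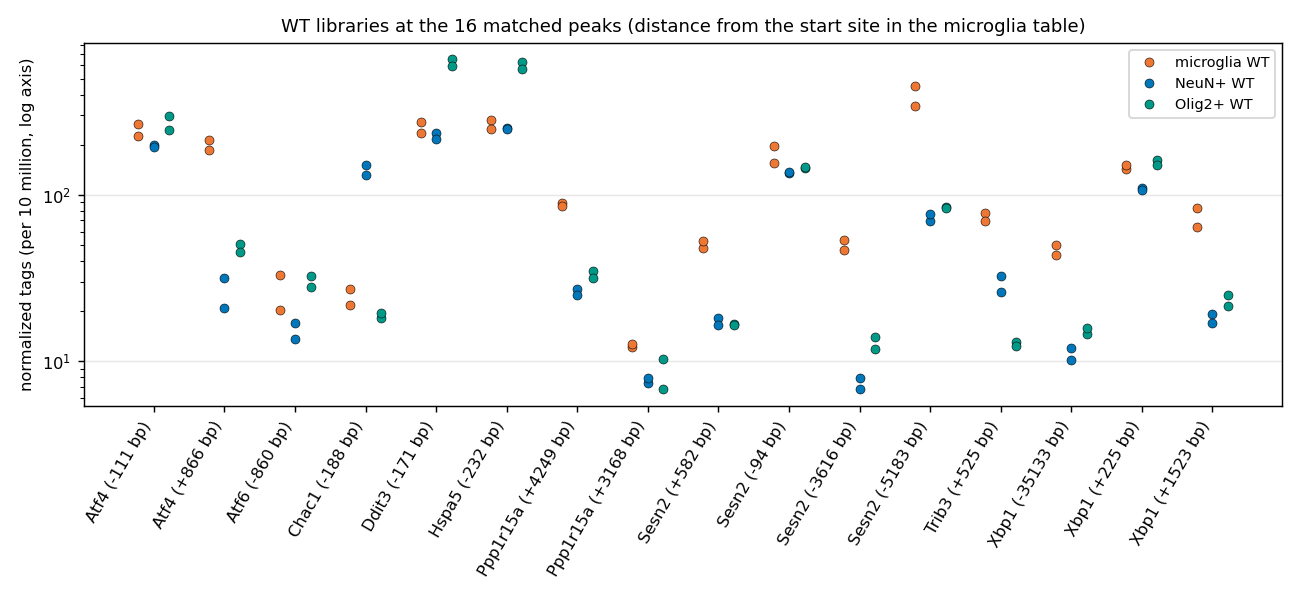
Normalized tags (per 10000000 tags, log axis) in each WT library at the 16 matched member peaks, 2 points per sort. Ddit3 and Hspa5 are highest in Olig2+ nuclei (means of 624 and 599), Chac1 in NeuN+ nuclei (141), and the peak 5183 bp before Sesn2 in microglia (395).

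The other genes of the pathway were described in 9 lists of 111 genes, from sensors and eIF2 kinases to chaperones, ER-associated degradation, secretion, amino acid supply, tRNA charging and growth control. In microglia 16 of their 100 start-site peaks were called, all higher (16%, beside 12.7% of all start-site peaks), and their median log2 difference was 0.49 against 0.20. The tRNA synthetases had 4 of 12 called, the growth and death targets 3 of 13, ER chaperones 2 of 16, stress transcription factors 2 of 10, amino acid supply genes 2 of 17, eIF2 kinases and phosphatase 1 of 7, ER-associated degradation 1 of 12 and secretion 1 of 10. Limma called 0 of the 4 ER stress sensors, 2 of which had an unadjusted p under 0.05; edgeR called 2 and DESeq2 0. The largest increases were at Sec63, a helper of protein import into the ER (70.87 and 45.75 tags in WT, 138.52 and 209.81 in SgshKO; log2 difference 1.57 ± 0.32, limma adjusted p 0.00144), and at the tyrosyl- and cysteinyl-tRNA synthetases Yars (121.85 and 99.12 against 266.65 and 345.35; 1.46 ± 0.28) and Cars (124.45 and 93.19 against 290.02 and 284.08; 1.41 ± 0.28). The count rose to 37 with median-of-ratios scaling and 40 with edgeR. It fell to 3 without WT replicate 1 and to 0 without WT replicate 2 by limma, and was 30 when either SgshKO library was left out.

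In NeuN+ nuclei 64 of the 97 list genes with a start-site peak were called, all lower (66.0%, beside 55.1%), with a median of -0.54 against -0.57. The lowest were Mbtps2, the site-2 protease that releases ATF6 (20.39 and 19.77 tags to 8.38 and 7.62; -1.23 ± 0.28), Cth, which makes cysteine (81.57 and 68.90 to 38.39 and 27.30; -1.19 ± 0.18), and Sec24d, a coat protein of ER export (84.97 and 74.55 to 37.69 and 34.28; -1.13 ± 0.16). The count was 40 after scaling to tags in peaks, 20 after quantile normalization and 16 with DESeq2, 39 without WT replicate 1, and 0 by limma when either SgshKO library was left out, where nothing in the table was called. In Olig2+ nuclei 15 of 90 were called higher (16.7%, beside 16% of all start-site peaks) and 11 lower (12.2%, beside 7.7%), and the median was 0.03 against 0.07. Higher were Txnip, an inhibitor of thioredoxin (133.82 and 122.72 to 187.53 and 198.08 tags; 0.58 ± 0.10) and Ssr1, a subunit beside the ER translocon (154.05 and 167.21 to 238.56 and 233.98; 0.56 ± 0.09). Lower were Srp54a of the signal recognition particle (36.31 and 37.84 to 12.91 and 25.92; -0.98 ± 0.25), Cth (32.16 and 31.19 to 20.29 and 17.95; -0.70 ± 0.23) and Cars (49.79 and 67.50 to 36.28 and 44.54; -0.52 ± 0.18). Of 16 amino acid supply genes 4 were called, all lower, and DESeq2 called 0 of them, with an unadjusted p under 0.05 at 3. Of 14 chaperone genes 5 were called higher and 2 lower, and DESeq2 called 3. Over all lists DESeq2 called 9 of the 90, and limma called 16 without WT replicate 1 and 9 without WT replicate 2. Cars was higher in SgshKO microglia and lower in SgshKO Olig2+ nuclei, and the difference between the sorts was not tested for the list genes.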

How the data were processed

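ATAC-seq was measured in 12 libraries: microglia, NeuN+ nuclei and Olig2+ nuclei, each from WT and SgshKO mice, 2 libraries per group. The deposited tables, 1 per sort, hold merged peaks with coverage as a signal of normalized tags, which the authors scaled to 10000000 tags per library per the file headers, and a peak score. Bowtie2, HOMER and the mm10 build are named in the submitters' processing notes; versions, peak calling and duplicate handling were not given in the sources used here. Dividing by the step worth 1 read gave whole reads for 100% of values (tolerance 0.01); all peaks of a table were kept.

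SgshKO was compared with WT in each table by limma (3.58.1, R 4.3.3) on log2(tags + 1) with an intensity trend, two-sided, with Benjamini-Hochberg adjustment over all peaks and a threshold of 0.05. Sorts were compared in 1 limma model over peaks matched by 50% reciprocal overlap (bedtools 2.31.1). Alternatives were pseudocounts of 0.5 and 5, 2 filters, 3 scalings, edgeR (4.0.16) and DESeq2 (1.42.0) on the recovered counts, the replicate number as a block, each library left out, and 25% overlap. The recovered reads gave 14132, 29497 and 17864 called peaks with edgeR in the microglia, NeuN+ and Olig2+ tables, beside 6765, 32105 and 16370 with limma. The limma, edgeR and quantile-normalized fits were tested on simulated data, and the DESeq2 fit was not. The simulated data had the same spread setting in all sorts and no shift of promoters in general between genotypes. They therefore cannot show how often the fits err in these data.

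The members, gene lists and tests were chosen with earlier results of these data known. Text names each member's start-site peak, every other called member peak, every matched peak called between sorts, and the 3 highest and 3 lowest called list genes per table, of which 1 is not reported here.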

Additional observations from a re-analysis of the deposited data

Results flagged for a closer look

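At 10 matched peaks of 7 genes the SgshKO minus WT change differed between sorts in the limma model over all 12 libraries. That model uses 1 estimate of the spread for all sorts. Values are on the log2(tags + 1) scale, with adjusted p in parentheses. At the Ddit3 start site the change was larger in microglia than in NeuN+ nuclei by 1.936 (1.75e-08) and than in Olig2+ nuclei by 1.202 (5e-05), and the NeuN+ change was below the Olig2+ change at -0.734 (0.00485). The Sesn2 start site gave 1.421 (5.07e-06), 0.717 (0.0138) and -0.704 (0.0117) in the same order. The Atf4 start site gave 1.122 (5.65e-05) against NeuN+ and 0.752 (0.00739) against Olig2+ nuclei, and the Atf4 intron peak at 866 bp gave 1.031 (0.00443) against NeuN+ nuclei and -0.896 (0.0181) for NeuN+ minus Olig2+. Xbp1 gave 0.943 (0.000411) for microglia minus NeuN+ and -0.756 (0.00594) for NeuN+ minus Olig2+ at its start site, and 1.564 (0.00978) for NeuN+ minus Olig2+ at the distal peak 35133 bp before it.

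For microglia minus NeuN+, Chac1 gave 1.388 (0.000994) and Hspa5 0.561 (0.0105) at the start sites. The peak 5183 bp before Sesn2 gave 0.574 (0.0425) against NeuN+ and 0.773 (0.0151) against Olig2+ nuclei. Of the 9 differences called for microglia minus NeuN+, only that at the Atf6 peak 860 bp before the start was negative, at -1.389 (0.0255). The median of all matched peaks was 0.60 for microglia minus NeuN+, 0.17 for microglia minus Olig2+ and -0.50 for NeuN+ minus Olig2+.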

How the results depend on the processing

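Over 53 named peaks and contrasts, 687 of 883 alternative values kept their direction and their side of the threshold. With the direction kept, 146 lost the call and 13 gained it. The other 37 changed sign, whether called or not. Among called results, the Ddit3 differences of microglia from NeuN+ and from Olig2+ nuclei were called in all 23 alternatives each. The distal Xbp1 difference of NeuN+ from Olig2+ nuclei was called in all 21, and the Ddit3 and Trib3 start sites of microglia in 12 of 14. Others kept call and sign less often. Examples are the Asns start site of NeuN+ nuclei (5 of 14), the Xbp1 peak at 1567 bp of Olig2+ nuclei (6 of 14) and the Sesn2 peak at -5183 bp for microglia minus NeuN+ (10 of 23). Causes of the changes were not tested.

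Member peaks called in microglia (2) numbered 4 with a pseudocount of 5, 8 with scaling to tags in peaks, 6 with edgeR and 0 to 9 with 1 library left out. In NeuN+ nuclei (11) there were 3 under quantile normalization, 2 with DESeq2 and 0 to 8 with 1 library left out. In Olig2+ nuclei (4) there were 2 with median-of-ratios scaling, 0 with DESeq2 and 0 to 6 with 1 library left out. For the genotype change of microglia minus NeuN+ (9), median-of-ratios scaling gave 4, edgeR 5 and DESeq2 3. For microglia minus Olig2+ (4), scaling to tags in peaks, quantile normalization and DESeq2 each gave 1, and leaving out 1 library gave 2 to 6. For NeuN+ minus Olig2+ (5), scaling to tags in peaks gave 1, median-of-ratios scaling, quantile normalization and edgeR each 2, DESeq2 0, and leaving out 1 library 3 to 6. Between WT NeuN+ and Olig2+ nuclei (8), scaling to tags in peaks and DESeq2 each gave 5.

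Called list genes in microglia (16) numbered 37 with median-of-ratios scaling, 40 with edgeR and 0 to 30 with 1 library left out. In NeuN+ nuclei (64) they numbered 40 with scaling to tags in peaks, 42 with median-of-ratios scaling, 20 under quantile normalization, 16 with DESeq2 and 0 to 47 with 1 library left out. In Olig2+ nuclei (26) they numbered 9 with DESeq2 and 9 to 24 with 1 library left out. The labels do not say what a shared replicate number means. Across peaks, deviations of same-numbered libraries were hardly correlated (r of 0.042, 0.004 and 0.001 in microglia, NeuN+ and Olig2+ nuclei). In microglia replicate 1 had the higher share of tags in peaks in both genotypes (55.75% against 48.68% in WT, 67.44% against 53.65% in SgshKO). The same held in NeuN+ nuclei, and in Olig2+ nuclei for WT only. With the replicate number as a block, 6 member peaks and 38 list genes were called in microglia, 2 of the member peaks beyond 1000 bp (in place of 0), and the Olig2+ start sites called were 2 in place of 1; the Sesn2 start site of microglia and the Atf4 start site of Olig2+ nuclei gained the call.

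Sign changes under quantile normalization were, for microglia minus NeuN+, Xbp1 at 225 bp (-0.131), Atf4 at -111 bp (-0.0897) and 866 bp (-0.0437), Hspa5 (-0.640) and the Sesn2 peak at -5183 bp (-0.720); the last 2 were called. Hspa5 also changed sign in that contrast with median-of-ratios scaling (-0.0445), edgeR (-0.0705) and DESeq2 (-0.0481), as did the Sesn2 peak at -5183 bp (-0.0279, -0.0561 and -0.0342). In single sorts, quantile normalization gave 0.182 at Atf6 of microglia, -0.00332 and -0.0119 at Ddit3 and Sesn2 of Olig2+ nuclei, 0.0379 at Chac1 of Olig2+ nuclei, 0.00224 at Hspa5 of NeuN+ nuclei and 0.0997 at Ppp1r15a of NeuN+ nuclei. In the order median-of-ratios scaling, edgeR and DESeq2, Hspa5 of microglia was 0.0493, 0.0566 and 0.0639, Ppp1r15a of NeuN+ nuclei 0.122, 0.137 and 0.133 (and 0.202 with scaling to tags in peaks), and Chac1 of Olig2+ nuclei 0.0345, 0.0455 and 0.0454. With 1 library left out, start-site values that changed sign ran from -0.694 to 0.304 (Atf6) and -0.0976 to 0.0835 (Hspa5) in microglia, -0.192 to 0.0176 (Ppp1r15a) in NeuN+ nuclei, and in Olig2+ nuclei from -0.167 to 0.106 (Chac1), -0.0360 to 0.0986 (Ddit3), -0.0271 to 0.0473 (Sesn2) and -0.599 to 0.00154 (Trib3). Of all microglia peaks (6765 called), 14522 were called with scaling to tags in peaks, 11972 with median-of-ratios scaling, 10484 under quantile normalization, 14132 with edgeR, 14489 with the block, 1159 and 557 without WT replicate 1 and 2, and 18850 and 16531 without SgshKO replicate 1 and 2. Of all NeuN+ peaks (32105), 16701 were called under quantile normalization, 4899 with DESeq2, 11278 and 14482 without WT replicate 1 and 2, and 0 by limma when either SgshKO library was left out (33265 and 32556 at an unadjusted p under 0.05). Of all Olig2+ peaks (16370), 3589 were called with DESeq2 and 6165 and 6090 without WT replicate 1 and 2. The share of higher ones among called NeuN+ peaks was 34.3% by limma and 58.2% with edgeR, and that among matched peaks called for microglia minus NeuN+ was 96.1% (7116 called) and 68.8% (4594). Peaks removed by a filter, or given no adjusted p by DESeq2, have no value there. Leaving out a library leaves 1 in its group, which is assumed to vary like the others. With 2 libraries a group, low peaks such as Atf6 and Asns in microglia can show only large differences.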
